A study of Mus musculus with 6 samples.

Results

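The account covers p53 and 9 of its target genes in mouse embryonic stem cells that lack Ddx5. The genes are Trp53, which encodes p53, and Cdkn1a, Mdm2, Ccng1, Bbc3, Sesn2, Bax, Phlda3, Zmat3 and Aen. They were taken by name from the deposited expression table, and all 10 were among its 10989 genes. RNA was sequenced from 4 Ddx5-/- lines (KO lines 1 to 4) and from 2 replicates of Ddx5+/+ cells (WT replicates 1 and 2), all of the MPI-II embryonic stem cell line at passages 13 to 18. Every library came from cells kept on feeder cells in medium with 15% serum, 1000 U/ml leukemia inhibitory factor, 1 µM of the MEK inhibitor PD0325901 and 3 µM of the GSK3 inhibitor CH99021. The KO cells had in addition received a Cas9 nickase with a pair of guide RNAs and been selected with G418, and each KO line is 1 clone. The labels do not state whether the WT replicates were separate cultures, so the spread between them may be technical. The p-values speak of the spread among these KO clones and between these WT replicates only.

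p53 is a transcription factor that is kept low by the ubiquitin ligase Mdm2 and accumulates when DNA is damaged or cells are stressed. It binds pairs of short half-sites near its targets and raises genes that stop the cell cycle, kill the cell, repair DNA or adjust metabolism. Mouse embryonic stem cells are known to hold much p53 mRNA and protein and to restrain its activity while they self-renew. Ddx5, an RNA helicase also called p68, and its close relative Ddx17 are known from human cancer cells as coactivators of p53 at some of these targets, which is the question that the comparison of KO with WT bears on.

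The guide sequences are shown because they define the KO group. Both match the Ddx5 transcript on the minus strand of chromosome 11 in mm10, guide 1 in annotated exon 1 at chr11:106788275-106788294 and guide 2 in exon 2 at chr11:106787009-106787028, while the labels place the pair in the second exon.
Ddx5 guide 1: gagaccgcggccgggatcga
Ddx5 guide 2: ggaaagaagtttggaaatcc

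Promoter sequences of the targets are shown because the binding site is what makes a gene a direct p53 target. RefSeq promoter windows on GRCm38.p6, each 250 bases before to 50 bases after a gene's start, were found for 9 of the 10 genes, Zmat3 having no entry. The p53 half-site, a motif of 10 letters read without mismatch and the same on both strands, was found for 6 of these 9 genes, in 7 of their 13 windows. Across all 32851 windows of the table, 2745 held the half-site, which is 8.36%. A full site was 2 half-sites in a row with at most 1 mismatch, and none at the core C or G of either. Such a site was in the windows of Cdkn1a and Ccng1 and in 22 of all windows, 0.067%. Capitals mark the matched site, and each sequence is given in the direction of the gene. A match describes letters and not binding, and the binding sites of several of these genes are known to lie in introns, outside the windows.
Cdkn1a full site (chr17:29090908-29090967, plus strand): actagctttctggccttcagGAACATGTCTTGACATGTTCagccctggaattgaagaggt
Ccng1 full site (chr11:40755442-40755501, minus strand): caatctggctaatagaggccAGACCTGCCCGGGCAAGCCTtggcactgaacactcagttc
Mdm2 half-site (chr10:117710910-117710969, minus strand): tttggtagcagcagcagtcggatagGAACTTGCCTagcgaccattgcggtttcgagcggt
Bax half-site (chr7:45467065-45467124, minus strand): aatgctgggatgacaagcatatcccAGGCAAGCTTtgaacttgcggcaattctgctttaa
Trp53 half-site (chr11:69580259-69580318, plus strand): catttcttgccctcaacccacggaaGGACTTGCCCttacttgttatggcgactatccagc
Aen half-site (chr7:78895927-78895956, plus strand): agccgaagccGGGCTTGTCCgggcaaggag

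Values are normalized expression in deposited units, whole numbers that sum to between 14612799 and 14722877 in every library as a result of the authors' normalization. The sequencing depth is unknown, and WT replicate 2 was unlike the rest in its zeros: the KO lines each had 13 to 19 genes listed at 0, WT replicate 1 had 17 and WT replicate 2 had 131. Ddx5 itself had 5854, 8450, 12793 and 5659 units in KO lines 1 to 4, against 36433 and 36436 units in WT replicates 1 and 2. It fell to 22.5% of WT (log2 fold change -2.23 ± 0.317 SE, limma adjusted p = 0.00807), so every KO library matched its label while none was at 0. Both WT values lie close to the 36418 units of Dppa5a in each KO line, given below. Abundant genes shared such values, so the WT level, its close match and the percentage are approximate. Markers of the feeder fibroblasts summed to 12039, 7821, 9741 and 8131 units in the KO lines, against 73319 and 40116 units in the WT replicates. Of the 26 feeder markers measured, 24 were called lower and none higher in KO, also at an unadjusted p below 0.05, and only Col6a3 was at 0 in any library (KO line 4). Every gene of the table had at least 80 units in 2 or more libraries. Col6a3 and other markers this low in KO are therefore in it through WT alone. In bulk RNA, fewer cells of a type and less RNA per cell cannot be told apart. The part of feeder RNA in the values of the p53 genes was not tested. Embryonic stem cell markers summed to 137393 to 144871 units in the KO lines and to 184312 and 114617 units in the WT replicates. Dppa5a had 36418 units in each KO line, against 78894 units, the highest value of the table, in WT replicate 1 and 17548 in WT replicate 2. Of these 15 genes Nanog was called higher and Klf4 and Lin28a lower in KO, beside 17.1% of all genes called in either direction. Nanog lies on chromosome 6, whose genes had a median shift of 0.42 on the log2 scale in KO line 4.

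Of the 10 genes none was called higher in KO, and 1, Aen, was called lower. Calls are limma tests on log2 values (scaled value plus a pseudocount of 1) at an adjusted p below 0.05 over all 10989 genes, and folds on this scale understate the change of low genes. Among all genes 17.1% were called, 9.75% higher and 7.34% lower in KO. With 1 call in 10 genes, the share of the p53 genes called lay near that background. For 5 of the 10 genes the groups did not overlap. They were below WT for Bbc3, Bax, Phlda3 and Aen, and above it for Zmat3. Of all genes, 43.7% separated in this way, 19.6% below and 24.1% above. At an unadjusted p below 0.05, 3 of the 10 were lower (Aen, Bax and Phlda3) and 1 higher (Zmat3), against 15.7% and 20.4% of all genes. The median log2 fold change of the 10 genes was -0.15, beside 0.04 over all genes.

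**Figure D1:**
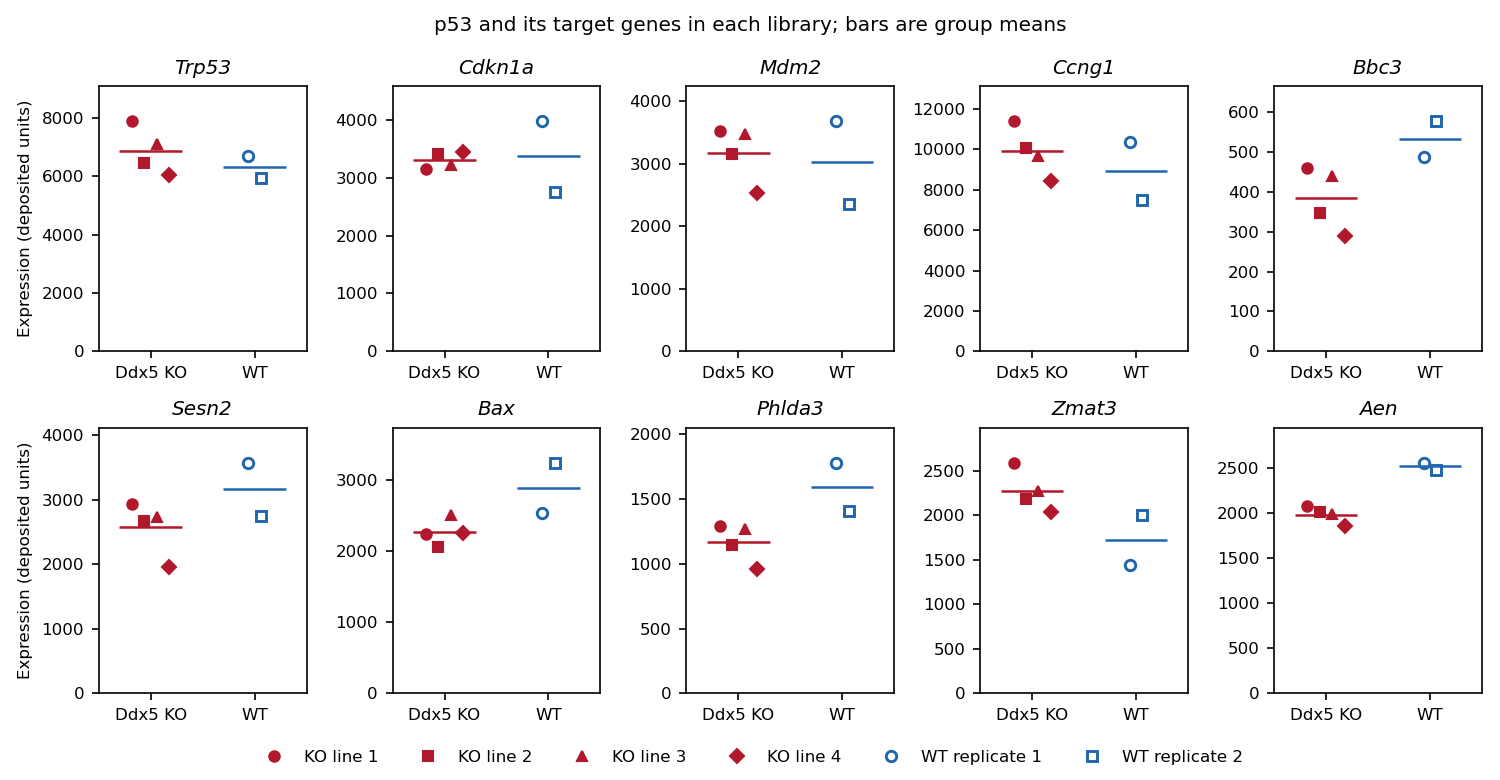
Expression of p53 and 9 targets in deposited units (vertical axes, each starting at 0) in the 4 Ddx5 KO lines, filled red symbols, and the 2 WT replicates, open blue symbols, with a bar at each group mean. Aen, for example, lies between 1860 and 2077 units in the KO lines, below both WT replicates at 2559 and 2476 units, while the WT replicates of Mdm2 span the KO lines.

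Trp53 (ENSMUSG00000059552, chr11:69580359-69591873, plus strand) had 7898, 6441, 7100 and 6024 units in KO lines 1 to 4, against 6688 and 5928 units in WT replicates 1 and 2. The groups overlapped, with KO line 1 highest of the 6 libraries and WT replicate 2 lowest. Trp53 averaged 6866 ± 818 units in KO and 6308 ± 537 in WT (SD, n = 4 and 2). The log2 fold change was 0.12 ± 0.124 SE with a 95% interval of -0.18 to 0.41, and did not pass the test (limma adjusted p = 0.532). The mouse genome holds a processed copy, Trp53-ps, which is no row of the table, and reads of the copy and the gene could have been shared out by the authors' counting.

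Mdm2 and Ccng1 belong to the feedback on p53. Mdm2 (ENSMUSG00000020184, chr10:117688875-117710758, minus strand), the ubiquitin ligase that marks p53 for degradation and is itself a p53 target, had 3519, 3148, 3466 and 2533 units in KO lines 1 to 4, against 3686 and 2360 units in the WT replicates. The KO lines all lay between the WT replicates, which differed 1.56-fold, the widest gap between the WT replicates among the 10 genes. The log2 fold change was 0.09 ± 0.206 SE (95% interval -0.40 to 0.58, limma adjusted p = 0.78). Without WT replicate 1 it was 0.41 and without WT replicate 2 it was -0.23, so its sign rested on which WT library was kept.

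Ccng1 (ENSMUSG00000020326, chr11:40748552-40755311, minus strand) encodes cyclin G1, which brings a phosphatase to Mdm2. It had 11410, 10047, 9663 and 8438 units in the KO lines, against 10372 and 7502 units in the WT replicates. KO line 1 was highest and WT replicate 2 lowest, and the groups overlapped. The log2 fold change was 0.16 ± 0.161 SE (95% interval -0.23 to 0.54, limma adjusted p = 0.522), and it was -0.08 without WT replicate 2 and 0.39 without WT replicate 1.

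Cdkn1a (ENSMUSG00000023067, chr17:29090976-29100727, plus strand) encodes p21, the inhibitor of cyclin-dependent kinases through which p53 halts the cycle. It had 3142, 3408, 3216 and 3434 units in the KO lines, against 3983 and 2752 units in the WT replicates. The KO lines differed among themselves by no more than 1.09-fold, the narrowest range of the 10 genes, and all lay between the WT replicates, which differed 1.45-fold. The means were 3300 ± 143 units in KO and 3368 ± 870 in WT (SD, n = 4 and 2), and the log2 fold change was -0.01 ± 0.147 SE (95% interval -0.35 to 0.34, limma adjusted p = 0.982). It became 0.26 without WT replicate 1, -0.27 without WT replicate 2, and 0.02 and 0.01 without KO lines 1 and 3, with no call in any of these fits. An unnamed gene model on the opposite strand, AC167363.2, overlaps 7.68% of the exonic bases of Cdkn1a, and its reads cannot be told apart without strand.

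Aen, Bax, Bbc3 and Phlda3 are known for roles in cell death, and of these only Aen passed the test. Aen (ENSMUSG00000030609, chr7:78895854-78911209, plus strand), a nuclease that p53 induces and that promotes apoptosis, had 2077, 2010, 1987 and 1860 units in the KO lines, against 2559 and 2476 units in the WT replicates. All KO lines were below both WT replicates, and both groups were tight. Aen fell to a mean of 1984 ± 90.8 units in KO, against 2518 ± 58.7 in WT (SD, n = 4 and 2), a ratio of 0.788 and a log2 fold change of -0.34 ± 0.0861 SE (limma adjusted p = 0.0382). An exact permutation test of 2 against 4 libraries gave its smallest possible two-sided p, 0.0667. The size of the difference held at -0.37 to -0.31 in the 6 fits that each left out a library, but the call was lost in all 6, with limma adjusted p of 0.0583 to 0.114. It was also lost without a mean-variance trend (limma adjusted p = 0.0648).

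Bax (ENSMUSG00000003873, chr7:45461697-45466898, minus strand) forms the pores that release cytochrome c from mitochondria. It had 2244, 2053, 2506 and 2258 units in the KO lines, against 2539 and 3242 units in the WT replicates. KO line 3 lay just under WT replicate 1, and the ratio of the means was 0.784. The log2 fold change was -0.34 ± 0.129 SE (95% interval -0.65 to -0.04) and missed the threshold after adjustment (limma adjusted p = 0.106). It was -0.52 without WT replicate 1, where it passed (limma adjusted p = 0.0299), and -0.17 without WT replicate 2. Gm45808, a gene model on the same strand that is no row of the table, shares 12.2% of the exonic bases of Bax.

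Bbc3 (ENSMUSG00000002083, chr7:16308393-16318205, plus strand) encodes PUMA, the BH3-only protein that frees Bax to act. It had 460, 346, 440 and 290 units in the KO lines, against 486 and 578 units in the WT replicates. All KO lines were below both WT replicates, KO line 1 by the least, and Bbc3 varied most among the KO lines, by 1.59-fold. Its mean was 72.2% of WT, the lowest ratio of the 10 genes, with a log2 fold change of -0.47 ± 0.205 SE (95% interval -0.96 to 0.01, limma adjusted p = 0.146).

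Phlda3 (ENSMUSG00000041801, chr1:135766119-135769136, plus strand) encodes a small PH-domain protein that competes with the survival kinase Akt for membrane lipids. It had 1294, 1146, 1266 and 960 units in the KO lines, against 1782 and 1408 units in the WT replicates. The KO lines were again below both WT replicates, at 73.1% of the WT mean. The log2 fold change was -0.45 ± 0.158 SE (95% interval -0.82 to -0.07, limma adjusted p = 0.0913). It passed the threshold once the median shift of each chromosome was removed (-0.48, limma adjusted p = 0.0478), and was -0.28 without WT replicate 1 and -0.61 without WT replicate 2.

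Sesn2 and Zmat3 are known for other roles. Sesn2 (ENSMUSG00000028893, chr4:132492032-132510501, minus strand), a sestrin that restrains mTORC1 when leucine is scarce, had 2931, 2660, 2729 and 1952 units in the KO lines, against 3571 and 2752 units in the WT replicates. KO line 1 lay above WT replicate 2, so the groups overlapped. The log2 fold change was -0.30 ± 0.185 SE (95% interval -0.74 to 0.13, limma adjusted p = 0.282). Zmat3 (ENSMUSG00000027663, chr3:32334792-32366014, minus strand), an RNA-binding zinc finger protein that regulates splicing, had 2592, 2178, 2274 and 2036 units in the KO lines, against 1440 and 2002 units in the WT replicates. It was the gene of the 10 in which every KO line lay above both WT replicates, although KO line 4 and WT replicate 2 were close. Its ratio of means was 1.32 and its log2 fold change 0.41 ± 0.157 SE (95% interval 0.04 to 0.78, limma adjusted p = 0.11), with 0.17 without WT replicate 1, and with 0.65 and a call without WT replicate 2 (limma adjusted p = 0.0424).

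**Figure D2:**
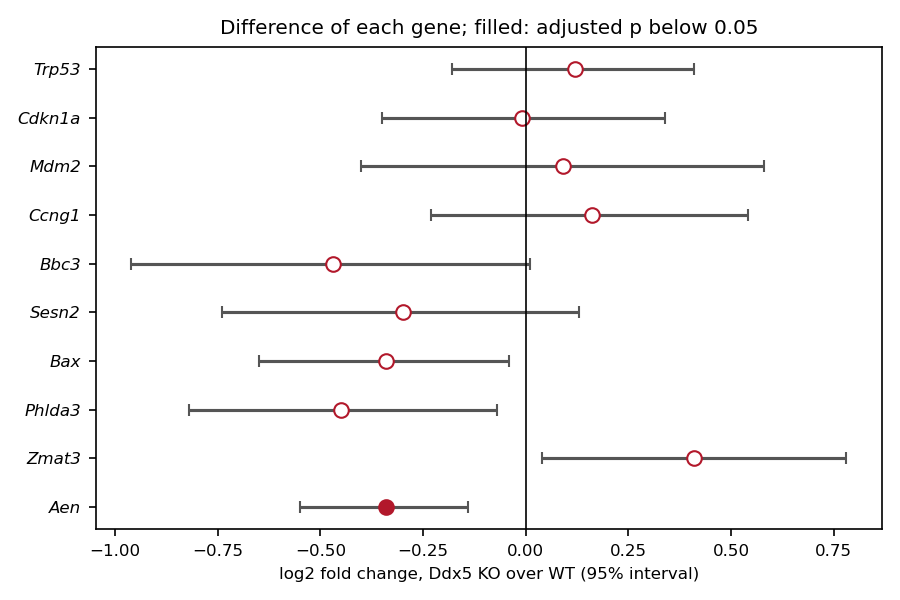
Log2 fold change of each gene, Ddx5 KO over WT (horizontal axis), with its 95% interval from limma. Aen, filled, is the gene past an adjusted p of 0.05, and the intervals of Bax, Phlda3 and Zmat3 also leave out 0 before adjustment.

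Several of the 10 genes varied together across libraries of the same group. KO line 4 was the lowest KO line for 8 of the 10 genes, while it was the lowest for 34.1% of all genes. KO line 1 was the highest KO line for 8 of the 10, against 30.7% of all genes. The 10 genes summed to 37567, 33437, 34647 and 29785 units in KO lines 1 to 4, and to 37106 and 31000 units in the WT replicates. WT replicate 1 exceeded WT replicate 2 for 7 of the 10 genes, and the exceptions were Bbc3, Bax and Zmat3, while 54% of all genes were higher in WT replicate 1. WT replicate 1 was also the library with the larger sum of feeder markers, and the part of that in the p53 genes was not tested. These are counts over genes of the same libraries and describe the libraries only. The chromosomes of the 10 genes had library medians within -0.07 to 0.05 of their mean on the log2 scale.

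**Figure D3:**
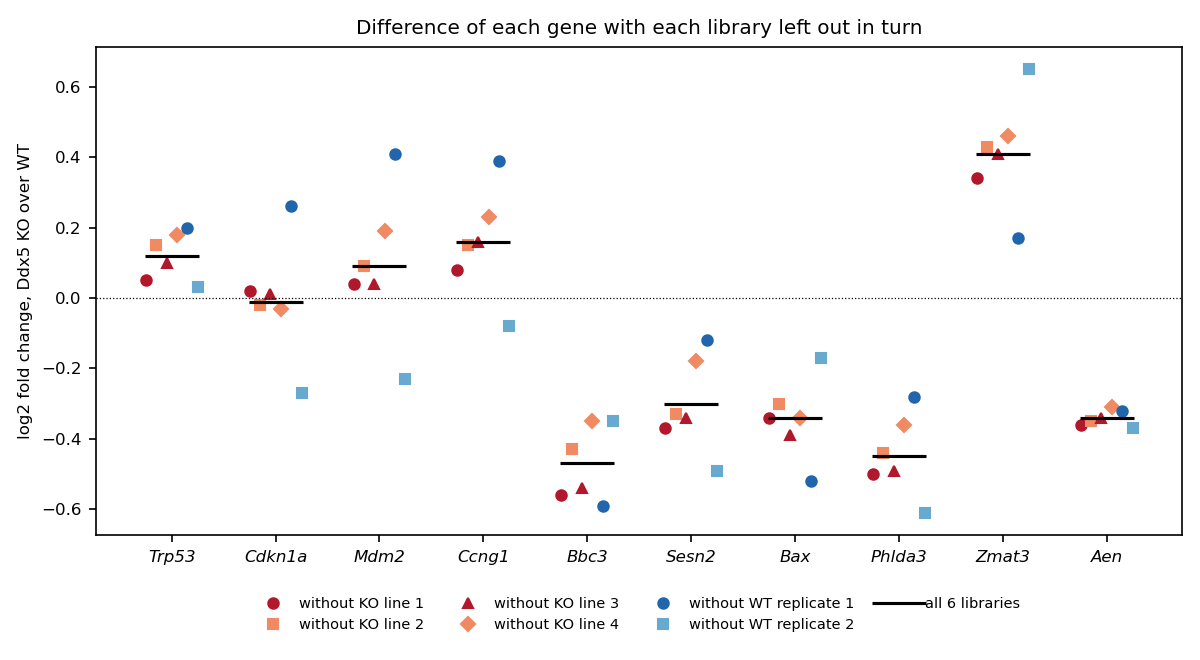
Log2 fold change of each gene, Ddx5 KO over WT (vertical axis), when each library is left out in turn (symbols) and with all 6 libraries (bars). The fits without a WT replicate, in blue, spread widely around the bar for most genes. Cdkn1a crosses 0 without WT replicate 1 and without KO lines 1 and 3, Mdm2 and Ccng1 cross it without WT replicate 2, and Aen stays between -0.37 and -0.31.

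Per kilobase of annotated exon, Ccng1 stood highest in the KO lines with a mean of 2816 units and a range of 2403 to 3249. Trp53 followed at 1697 units per kilobase and Bax at 1437, and their ranges over the KO lines overlapped. Cdkn1a came next at 929, then Phlda3 at 748, Sesn2 at 739 and Mdm2 at 623, and the ranges of these last 3 overlapped. Aen was at 342 units per kilobase, and Zmat3 at 199 and Bbc3 at 181 overlapped at the low end. In WT the order was Ccng1 at 2545, Bax at 1834, Trp53 at 1559, Phlda3 at 1023, Cdkn1a at 948, Sesn2 at 910, Mdm2 at 595, Aen at 434, Bbc3 at 250 and Zmat3 at 151 units per kilobase. The WT ranges of Bax and Trp53 overlapped, as did those of Phlda3, Cdkn1a and Sesn2, so the order within these sets is not settled. Whether the deposited values were already corrected for length is not given in the sources used here, and if they were, the order would follow the undivided units.

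The genes whose profile over the 6 libraries lay closest to that of Trp53, by the root mean square difference of mean-centred log2 values, were Gm13150 at 0.041, Nfatc2ip at 0.046, AU018091 at 0.047, and Fryl and Ptprg at 0.049 each, where the median over all genes was 0.273. For Cdkn1a they were Psmf1 at 0.025, Med27 at 0.036, Rer1 at 0.038, Syt9 at 0.039 and Cacna2d1 at 0.043, with a median over all genes of 0.284. None of these 10 genes was called in KO against WT (limma adjusted p of 0.311 to 0.993). They were picked for profiles like those of Trp53 and Cdkn1a, neither of which was called. The lack of calls therefore follows from the choice and is no separate result. Psmf1, for instance, had 435, 481, 448 and 462 units in the KO lines, against 542 and 385 units in the WT replicates. Its KO lines lay between the WT replicates, as for Cdkn1a, which also follows from the choice.

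Of 30 measured regulators and partners of p53, 9 were called higher and 1 lower in KO, beside 9.75% and 7.34% of all genes. Their median log2 fold change was 0.19, beside 0.04 over all genes. This list and those of the next paragraphs were chosen with earlier results of these data known. Their shares are therefore no independent test. Ddx17, the relative of Ddx5, had 12197, 10934, 10063 and 10934 units in the KO lines, against 4395 and 4742 units in the WT replicates, and rose by 1.27 ± 0.0955 SE on the log2 scale (limma adjusted p = 0.00201). This was the largest rise of the group, and the KO lines did not overlap WT. Mdm4, the partner of Mdm2 that blocks the activation domain of p53, had 7225, 7108, 6694 and 5770 units in the KO lines, against 4994 and 4506 units in the WT replicates, and rose by 0.49 (limma adjusted p = 0.0302). Trp53bp1, a factor of double-strand break repair that binds p53, rose by 0.76 and the damage kinase Atr by 0.58. The p53-binding proteins Ppp1r13b, which promotes its death function, and Ppp1r13l, which inhibits it, rose by 1.00 and 1.02. The methyltransferase Smyd2, which modifies p53, rose by 0.91, and the deacetylase Sirt1 fell by 0.56 on the log2 scale (limma adjusted p = 0.0364). Leaving out KO lines 1, 2, 3 and 4 gave 5, 2, 2 and 8 higher calls, and leaving out WT replicates 1 and 2 gave 10 and 5. Ddx17 and Trp53bp1 were called in all 6 of these fits.

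Other p53 targets were described in 4 groups by function, beside the 9.75% of all genes called higher and the 7.34% called lower. In DNA repair, 5 of 11 genes rose and none fell, also at an unadjusted p below 0.05, with a median log2 fold change of 0.52. Polh and Polk, polymerases that copy past damage, rose by 1.11 and 0.68, Xpc and Ddb2, which recognise ultraviolet lesions, by 0.87 and 0.82, and the excision nuclease Ercc5 by 0.55, with limma adjusted p of 0.0214 to 0.0413. Xpc, like Nanog, lies on chromosome 6, with its median shift of 0.42 in KO line 4. Ddb2 had 227, 198, 245 and 230 units in the KO lines, against 152 and 96 units in the WT replicates. These calls were few once a library was left out: 2, 0, 0 and 1 without KO lines 1, 2, 3 and 4, 6 without WT replicate 1 and 0 without WT replicate 2.

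Among 18 further genes of cell death, 3 rose and none fell (2 were lower at an unadjusted limma p below 0.05), with a median log2 fold change of 0.08. Trp53i11 had 744, 550, 524 and 624 units in the KO lines, against 226 and 201 units in the WT replicates, and rose by 1.44 ± 0.164 SE (limma adjusted p = 0.00502). Apaf1, the scaffold of the apoptosome, rose by 0.62 and Pidd1, which activates caspase-2, by 0.59 (limma adjusted p = 0.0183 and 0.0425). The called genes of the group thus went in the direction opposite to Aen. Perp and Triap1 went the same way as Aen without a call, by -0.78 and -0.64 (limma adjusted p = 0.0696 and 0.0636). In both, every KO line lay below both WT replicates. Of the 18 genes, 11 had a positive and 7 a negative fold change. The count of rises was 2, 1, 1 and 3 without KO lines 1, 2, 3 and 4 and 2 without either WT replicate, and Trp53i11 was called in every one of these fits. Of 13 cell cycle targets, Ckap2, a protein of the spindle, rose by 0.74 (limma adjusted p = 0.0302), none fell (1 was lower at an unadjusted p below 0.05), and the median was 0.24. Ckap2 lies on chromosome 8, where the median shift of the genes differed between libraries (medians of -0.32 to 0.22 in the KO lines, and of -0.34 and 0.07 in the WT replicates), and its call was kept without KO line 1 but lost when any other library was left out (limma adjusted p of 0.0546 to 0.088).

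Of 20 targets in metabolism and autophagy, 4 rose and 1 fell, with a median log2 fold change of 0.24. Lpin1, a phosphatidate phosphatase, had 1083, 1070, 1030 and 1086 units in the KO lines, against 548 and 354 units in the WT replicates, and rose by 1.25 (limma adjusted p = 0.00738). Pank1, which starts the synthesis of coenzyme A, rose by 1.00 and the lipid hydrolase Abhd4 by 0.77 (limma adjusted p = 0.012 and 0.0322). Cpt1c, of the carnitine palmitoyltransferases, rose by 1.02 and passed narrowly (limma adjusted p = 0.0486). Irgm1, an interferon-induced GTPase linked to autophagy, had 18, 8, 12 and 14 units in the KO lines, against 138 and 148 units in the WT replicates, and fell by 2.52 on the log2 scale (limma adjusted p = 0.00859). Every gene of the table had at least 80 units in 2 or more libraries, so Irgm1 is in it through WT alone. Its call is thus not independent of how the table was made. The KO values lie near the pseudocount, and the ratio of means was 0.0909, a larger fall than the log2 figure gives. Lpin1, Pank1 and Irgm1 were called whichever library was left out. The count of rises was 2, 2, 2 and 5 without KO lines 1, 2, 3 and 4, and 8 and 2 without WT replicates 1 and 2.

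Cell cycle genes that p53 is known to lower through p21 and the DREAM repressor complex were described as a further group. Of 25 genes, 12 rose and 1 fell in KO, beside 9.75% and 7.34% of all genes. Their median log2 fold change was 0.32, beside 0.04 over all genes. Cdkn1a itself differed by -0.01, with a wide 95% interval of -0.35 to 0.34 and a sign that turned with the library left out. Aurkb, a kinase of chromosome segregation, had 1382, 1376, 1314 and 1566 units in the KO lines, against 894 and 764 units in the WT replicates, and rose by 0.76 (limma adjusted p = 0.00983). Kif23 and Prc1, which build the midzone of the spindle, rose by 0.80 and 0.69, the proliferation marker Mki67 by 0.73, the kinetochore proteins Cenpf and Bub1 by 0.68 and 0.55, and the transcription factor E2f1 by 0.54. Ccnb2, a mitotic cyclin, had 1158, 1154, 1274 and 1479 units in the KO lines, against 2299 and 1926 units in the WT replicates, and fell by 0.73 on the log2 scale (limma adjusted p = 0.0169). Without KO lines 1, 2, 3 and 4 there were 9, 3, 3 and 9 rises, and without WT replicates 1 and 2 there were 13 and 8. Aurkb, Prc1 and Cenpf were called in all 6 of these fits. The sum of feeder markers was lower in every KO line than in WT, and its part in the level of these genes was not tested.

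**Figure D4:**
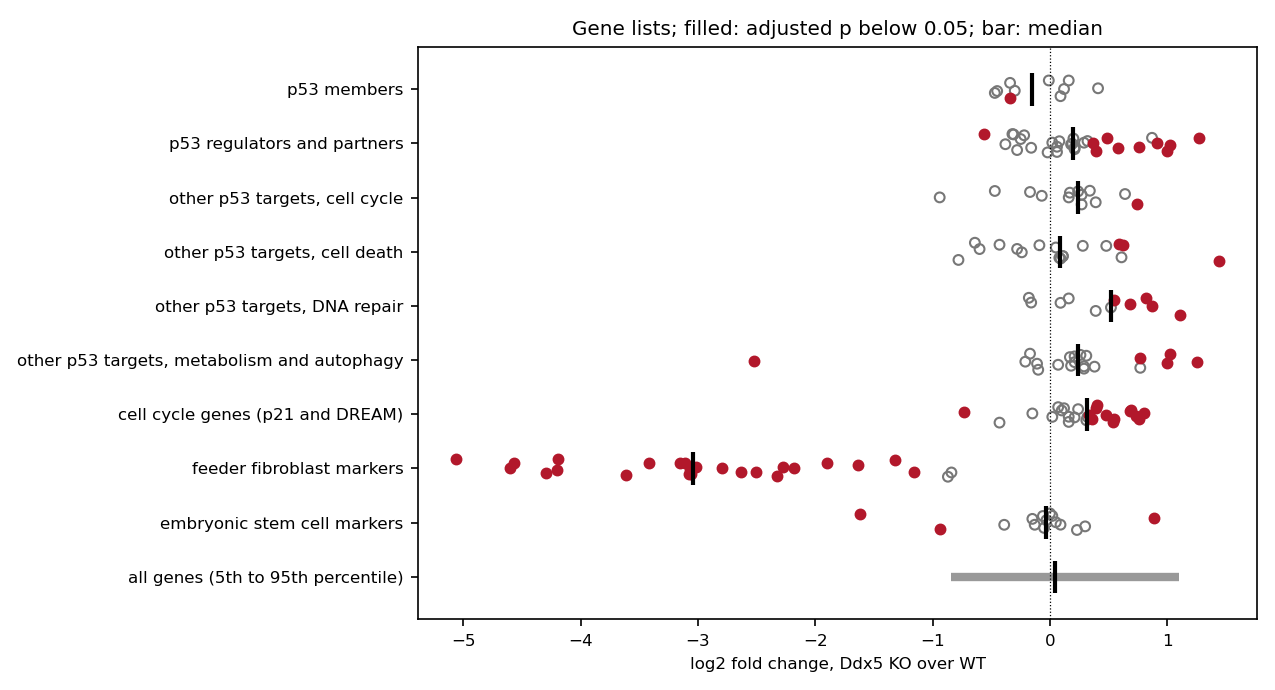
Log2 fold change, Ddx5 KO over WT (horizontal axis), of the genes of each group, with called genes filled and a black bar at the median; the lowest row spans the 5th to 95th percentile of all genes. The 10 p53 genes lie between -0.47 and 0.41 with a median of -0.15, the DNA repair targets have a median of 0.52, and the feeder markers reach -5.06.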

How the data were processed

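Build mm10 and the tools Bowtie2 2.2.0 and RSEM 1.2.17 are listed, without roles, per the submitters' processing notes, and how values were normalized is not given in the sources used here. CPM is the unit the authors named for the deposited table, which its sums contradict, so the deposited values were treated as a normalized score of no fixed unit. In each library 10 genes share the highest value, 78894, which compresses the most abundant genes. The median was 548 units in every library but WT replicate 2, where it was 542. Values of abundant genes also recur between libraries. Npm1, for instance, had 36468 units in KO lines 1, 2 and 3 and WT replicate 2, and 78894 in the other libraries. Such values move in shared steps and are not fine measures of amount. Without a known depth, counting intervals could not be had.

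Values were divided by 14.7 (the mean library total over 1000000), a pseudocount of 1 was added and log2 was taken. A filter asking for a scaled value of 1 in 2 libraries dropped no gene when all 6 libraries were used. It was applied again in each fit with a library left out. Groups were compared with limma 3.58.1 in R 4.3.3 (lmFit, eBayes with trend, two-sided, all 6 libraries, no covariate), with Benjamini-Hochberg adjustment over 10989 genes, and the fit was tested on simulated data. A single gene's exact permutation p cannot go below 0.0667 with 15 splits. Alternatives changed the pseudocount, the filter, the scaling, the variance trend, chromosome shifts, a replicate block and the libraries included. Symbols, positions and exonic lengths are from GENCODE M21.

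The 10 genes and the gene lists were chosen with earlier results of these data known. Named genes are the 10 genes, Ddx5 and Ddx17, called genes of each list (at most 8 by size), and the 5 genes closest in profile to Trp53 and to Cdkn1a. Col6a3 and the other feeder markers are summarised by list, and Col6a3 was named for its value of 0. Perp and Triap1 were named as the cell death genes lower at an unadjusted p below 0.05, and Npm1 for its shared values. These are outside the counts of named genes.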

Additional observations from a re-analysis of the deposited data

Results flagged for a closer look

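Polh stood apart in KO line 4. It had 165, 170, 177 and 260 units in KO lines 1 to 4, against 102 and 62 units in the WT replicates, and the gap between KO line 4 and the next line was 0.874 of the range of the KO lines, above Dixon's 95% critical value for 4 samples. Without KO line 4 the KO lines were still above both WT replicates. The 4 KO lines were examined in this way for 52 named genes with 1 value found, and chance flags about 1 group in 20. The genes named for profiles close to Trp53 or Cdkn1a were not among those examined.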

How the results depend on the processing

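The 10 genes gave 150 values under the alternatives, of which 134 kept their direction and their side of the threshold. Much of this count was set in advance, as 9 of the 10 genes had no call to lose. The fit without a filter also repeats the main fit, and quantile normalization hardly changed the folds. The count is therefore no measure of how firm the results are. With a library left out, the log2 fold change ranged from 0.03 to 0.20 for Trp53, -0.27 to 0.26 for Cdkn1a, -0.23 to 0.41 for Mdm2, -0.08 to 0.39 for Ccng1, -0.59 to -0.35 for Bbc3, -0.49 to -0.12 for Sesn2, -0.52 to -0.17 for Bax, -0.61 to -0.28 for Phlda3, 0.17 to 0.65 for Zmat3 and -0.37 to -0.31 for Aen. Signs turned for Cdkn1a (0.02 without KO line 1, 0.01 without KO line 3, 0.26 without WT replicate 1), Mdm2 (-0.23) and Ccng1 (-0.08), the last 2 without WT replicate 2. These fits have fewer samples, and with 1 WT library the lone sample is assumed to vary like the KO lines. Aen lost its call in all 6 of them, without a trend (-0.34) and with the replicate block (-0.30), and Phlda3 passed with chromosome medians removed (-0.48); the cause was not tested. The count of the 10 genes called lower was 0 without a trend, 2 with chromosome medians removed and 0 with the replicate block, and 0 to 1 with a library left out (Bax without WT replicate 1), where the count called higher was 0 to 1 (Zmat3 without WT replicate 2). Over all genes, 1071 were called higher and 807 lower, against 237 to 2004 higher and 235 to 1300 lower with a library left out, and 2 higher and 18 lower with the replicate block.

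The labels number both KO lines and WT replicates, but numbers 1 and 2 only are shared and nothing pairs the samples. Deviations from the group means correlated across genes at 0.145 for number 1 and 0.097 for number 2. The replicate block left no call, higher or lower, in any list other than the feeder markers, with 10 lower calls. With a library left out, higher calls ranged over 2 to 10 in regulators and partners, 0 to 1 in cell cycle targets, 1 to 3 in cell death, 0 to 6 in DNA repair, 2 to 8 in metabolism and autophagy, 3 to 13 in the p21 and DREAM genes and 0 to 2 in stem cell markers. Lower calls ranged over 0 to 1 in regulators and partners, 0 to 2 in cell death, 0 to 2 in the p21 and DREAM genes, 2 to 3 in stem cell markers and 18 to 24 in feeder markers, and stayed at 0 in cell cycle targets and DNA repair and at 1 in metabolism and autophagy. Of the feeder markers, Col6a1, Col6a2 and Col6a3 were not tested when a WT replicate was left out, as the filter dropped them. Lower calls moved to 0 without a trend in regulators and partners, and to 1 with chromosome medians removed in cell death. In metabolism and autophagy they moved to 0 with a filter at a scaled value of 10, where Irgm1 was not tested. In the p21 and DREAM genes they moved to 2 with median-ratio scaling or chromosome medians removed. Without a trend, higher calls went from 9 to 6 in regulators and partners and from 5 to 4 in DNA repair. They went from 4 to 3 in metabolism and autophagy and from 12 to 9 in the p21 and DREAM genes. The last group had 10 with median-ratio scaling or chromosome medians removed, and metabolism and autophagy had 5 with the latter. Of 29 named genes of the p53 lists, 8, and Ddx17 besides, kept their call in all 6 fits with a library left out. Depth is unknown, and 2 WT libraries limit every comparison.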
